A study of Mus musculus with 8 samples.

Results

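Ppargc1a encodes PGC-1alpha, a transcriptional coactivator that binds no DNA itself and is recruited to genes by nuclear receptors and other transcription factors. In skeletal muscle it is known as a driver of mitochondrial biogenesis, fatty acid oxidation and the slow, oxidative fibre programme, and its transcript responds to exercise, cold and fasting through cAMP, calcium and energy-sensing kinases. In mice, forced expression of PGC-1alpha in muscle has been described as protecting against atrophy. The gene was taken by its symbol from 2 tables of listed genes, and it is 1 of the 6028 genes that appear in either table. It was chosen by its group FPKM values in these tables, so those values are given as a description.

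The RNA came from tibialis anterior, a fast muscle at the front of the shin, and was sequenced in 4 groups of 2 libraries each, all from mice 12 to 14 weeks old. The 4T1 cachectic group was Balb/c mice with metastases of 4T1, a mouse breast cancer line, set against healthy Balb/c mice of matched age. The C26m2 cachectic group was CD2F1 mice with metastases of C26m2, a mouse colon cancer line, set against healthy CD2F1 mice of matched age. The injected cancer cells carried luciferase, resection of the tumours followed at 2 to 3 weeks, and the muscle was taken 5 weeks after injection, once metastases had been imaged and wasting had appeared. No injection or surgery is recorded for the healthy mice, so the effects of cancer and of these procedures cannot be told apart, and strain and cancer line change together between the models.

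Levels are the authors' group FPKM (RNA fragments counted per kilobase and scaled to the library), 1 value per group, so no value carries a spread between libraries. The labels do not say whether the libraries of a group came from separate animals. Folds and log2 ratios are of the cachectic over the healthy group value. A listed gene is one in the authors' table for that model, at a Cuffdiff q-value of 0.05 or less, and "rose" or "fell" is used for listed genes. Genes that are not listed are not called unchanged. By the products of q and rank over p, about 13218 genes were tested in the 4T1 comparison and 13121 in the C26m2 comparison, and sequencing depth is unknown. The fast-fibre genes Mylpf and Pvalb had 13985 and 10602 FPKM in healthy Balb/c muscle and 11181 and 11238 FPKM in healthy CD2F1 muscle and are defining transcripts of such a muscle.

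The sequence before a RefSeq start of Ppargc1a is shown because the gene's transcript, and no other readout of PGC-1alpha, was measured. It is the 250 bases at chr5:51567726-51567975 on the minus strand, from RefSeq on build GRCm38.p6, written 5′ to 3′ with a match to the core of the cAMP response element (TGACG, here on the opposite strand) in capitals.
Ppargc1a promoter: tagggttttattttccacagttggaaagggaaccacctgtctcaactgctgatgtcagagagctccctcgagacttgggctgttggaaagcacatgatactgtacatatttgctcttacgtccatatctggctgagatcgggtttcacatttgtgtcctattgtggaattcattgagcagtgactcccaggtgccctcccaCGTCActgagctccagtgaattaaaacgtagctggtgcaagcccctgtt
This match begins 49 bases before the start, and 17.8% of the 32851 RefSeq promoter windows of the same length hold TGACG on either strand. The full palindrome TGACGTCA was not in the window and occurred in 1.55% of windows. The window also held 6 matches to the E-box letters CANNTG, a pattern found in 66.2% of windows. None of the letters searched for FoxO factors (TGTTTAC, in 3.17% of windows), oestrogen-related receptors (AAGGTCA, in 4.08%), the CAAT box (CCAAT, in 33.8%) or MEF2 (in 0.508%) was in it. In GENCODE M21, 2 of the 5 annotated transcripts of the gene start beside this sequence, and the other 3 start 13803 to 13854 bases downstream. The group FPKM sums over the transcripts of a gene, so these values do not say which start was used.

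Ppargc1a was higher in cachectic muscle of both models, and more so in the 4T1 model. It had 84.1 FPKM in 4T1 cachectic muscle, against 7.24 FPKM in healthy Balb/c muscle, a ratio of 11.6 (log2 ratio 3.54). It had 27.4 FPKM in C26m2 cachectic muscle, against 7.74 FPKM in healthy CD2F1 muscle, a ratio of 3.54 (log2 ratio 1.82). The order of the levels was 4T1 cachectic, C26m2 cachectic, healthy CD2F1 and healthy Balb/c, but the models come from separate Cuffdiff tables whose common scaling is not known, and with 1 value per group it cannot be said which neighbours in this order differ beyond the spread between libraries. In the authors' deposited tables the q-value of Ppargc1a was 0.000382 for 4T1 and 0.000319 for C26m2, each that of the smallest p-value the test gave. That smallest p-value was shared by 1727 of the 4334 listed genes in 4T1 and 2058 of the 4832 in C26m2, so it does not set Ppargc1a apart.

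Listing was common in these tables. At the listing threshold 17.4% of the genes tested in the 4T1 comparison were called higher and 15.4% lower, and in the C26m2 comparison 21.7% were called higher and 15.1% lower. By size of fold, Ppargc1a was number 168 of the 2303 genes that rose in 4T1 cachectic muscle and number 533 of the 2847 that rose in C26m2 cachectic muscle. The median log2 ratio of the genes that rose was 1.48 in the 4T1 table and 1.14 in the C26m2 table. By level, 9.76% of listed genes were above Ppargc1a in 4T1 cachectic muscle, against 47.3% in healthy Balb/c muscle. In C26m2 cachectic muscle 27.2% of listed genes were above it, against 47.7% in healthy CD2F1 muscle.

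The healthy levels of the 2 strains were close and the cachectic levels were not. The log2 ratio of Ppargc1a in 4T1 cachectic over C26m2 cachectic muscle was 1.62, and that in healthy Balb/c over healthy CD2F1 muscle was -0.10. These are set across separate tables whose common scaling is not known, in which the 3138 genes listed in both had median log2 ratios of 0.06 between the cachectic groups and 0.09 between the healthy groups. The change of Ppargc1a was larger in 4T1 than in C26m2 by 1.72 on the log2 scale. Of the 1744 genes that rose in both tables, 40 (2.29%) had a larger difference in that direction, and the median difference was 0.18, with quartiles of -0.07 and 0.46. The difference was not tested, because the tables give 1 value per group.

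**Figure D1:**
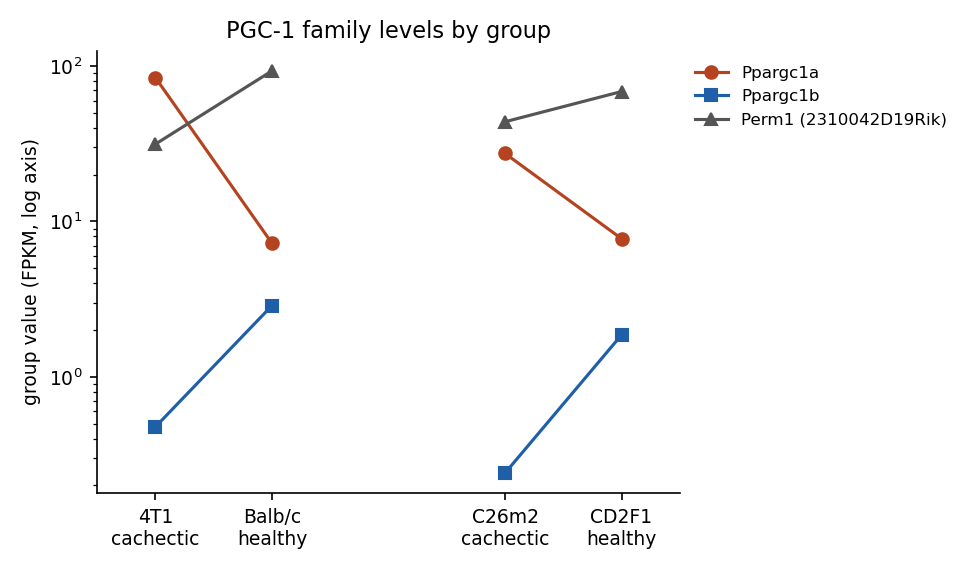
Group FPKM (log axis) of Ppargc1a, Ppargc1b and Perm1, named 2310042D19Rik in the tables, in the 4 groups, with 1 point per group and lines joining the groups of 1 table. Ppargc1a stands at 84.1 and 27.4 FPKM in the cachectic groups, against 7.24 and 7.74 FPKM in the healthy groups, while both other genes are lower in each cachectic group than in its healthy group.

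Ppargc1b, the closest relative of Ppargc1a, moved the other way. It encodes PGC-1beta, a coactivator with overlapping targets that is also known to raise mitochondrial content. Ppargc1b had 0.477 FPKM in 4T1 cachectic muscle, against 2.87 FPKM in healthy Balb/c muscle, and was 6.03-fold lower (q = 0.00131 in the authors' deposited table). It had 0.240 FPKM in C26m2 cachectic muscle, against 1.86 FPKM in healthy CD2F1 muscle, and was 7.74-fold lower (q = 0.000319 in the authors' deposited table). Both cachectic levels of Ppargc1b were under 1 FPKM and both healthy levels were above it. On this per-length scale, Ppargc1a stood at 176.5 times the level of Ppargc1b in 4T1 cachectic muscle, against 2.52 times in healthy Balb/c muscle. In C26m2 cachectic muscle it stood at 114 times the level of Ppargc1b, against 4.16 times in healthy CD2F1 muscle.

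Perm1, a muscle regulator induced by PGC-1 coactivators and kept on the family list for that, fell as well, under its older symbol 2310042D19Rik. It had 31.5 FPKM in 4T1 cachectic muscle, against 93.1 FPKM in healthy Balb/c muscle (log2 ratio -1.57). It had 43.8 FPKM in C26m2 cachectic muscle, against 68.6 FPKM in healthy CD2F1 muscle (log2 ratio -0.65). Pprc1, the third PGC-1 coactivator gene, was listed in neither table.

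**Figure D2:**
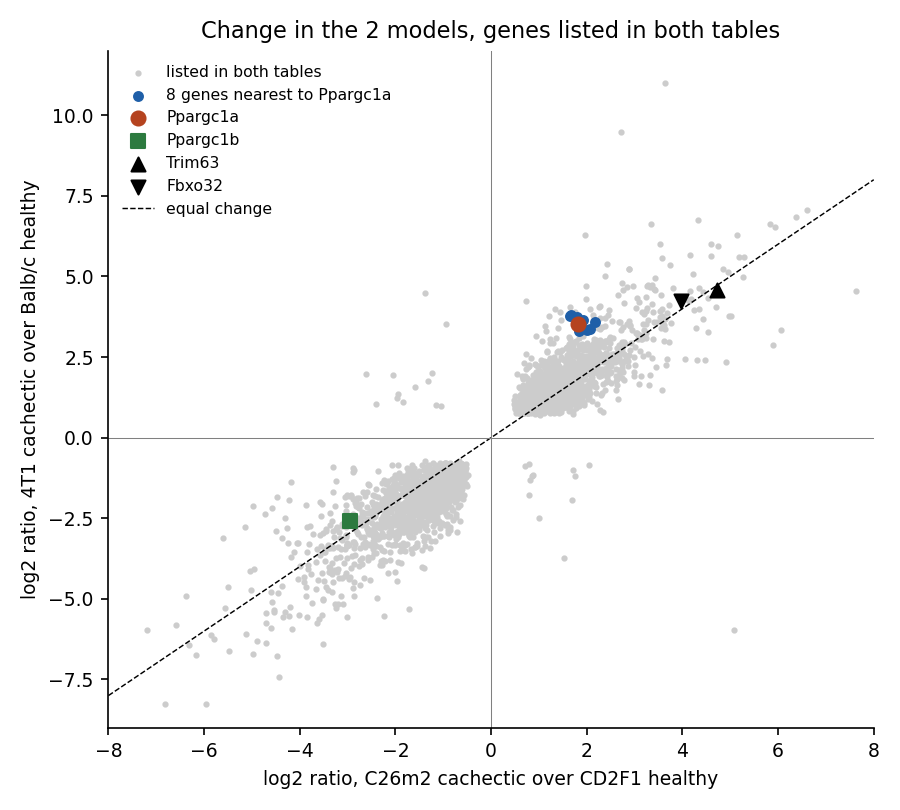
Log2 ratio of the group FPKM in 4T1 cachectic over healthy Balb/c muscle (vertical) against that in C26m2 cachectic over healthy CD2F1 muscle (horizontal), 1 point per gene listed in both tables, with the dashed line marking equal change. Ppargc1a lies above the line at 3.54 and 1.82 among its 8 nearest genes, Ppargc1b lies in the opposite quadrant, and the ligase genes Trim63 and Fbxo32 lie close to the line.

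Genes with a pattern like that of Ppargc1a were found by the distance between genes in the plane of the 2 log2 ratios, over genes listed in both tables. Besides Ppargc1a, 20 genes lay within 0.5 log2 units and 112 within 1. The 8 nearest were Abca4, Pgf, Fam107a, Baiap2l1, Agt, 1500012F01Rik (the noncoding RNA Zfas1), Slc25a33 and Arfgap3, at distances of 0.15 to 0.34. Abca4, a lipid transporter gene, was nearest, with folds of 12.6 in 4T1 and 3.81 in C26m2 at levels of 2.72 and 1.02 FPKM in the cachectic groups. Slc25a33, which encodes a mitochondrial carrier of pyrimidine nucleotides, was close to Ppargc1a in level too. It had 121.8 FPKM in 4T1 cachectic muscle, against 8.65 FPKM in healthy Balb/c muscle, and 33.6 FPKM in C26m2 cachectic muscle, against 10.5 FPKM in healthy CD2F1 muscle. Pgf, a growth factor of the VEGF family, had 6.53 FPKM in 4T1 cachectic muscle, against 0.492 FPKM in healthy Balb/c muscle, and 2.95 FPKM in C26m2 cachectic muscle, against 0.848 FPKM in healthy CD2F1 muscle. Agt, the angiotensinogen gene, rose 13.8-fold in 4T1 and 3.16-fold in C26m2. When likeness was taken instead from the log2 FPKM of the 4 groups, each gene less its own mean, 4 of these 8 genes (Abca4, Agt, Slc25a33 and Arfgap3) were again among the nearest 8.

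**Figure D3:**
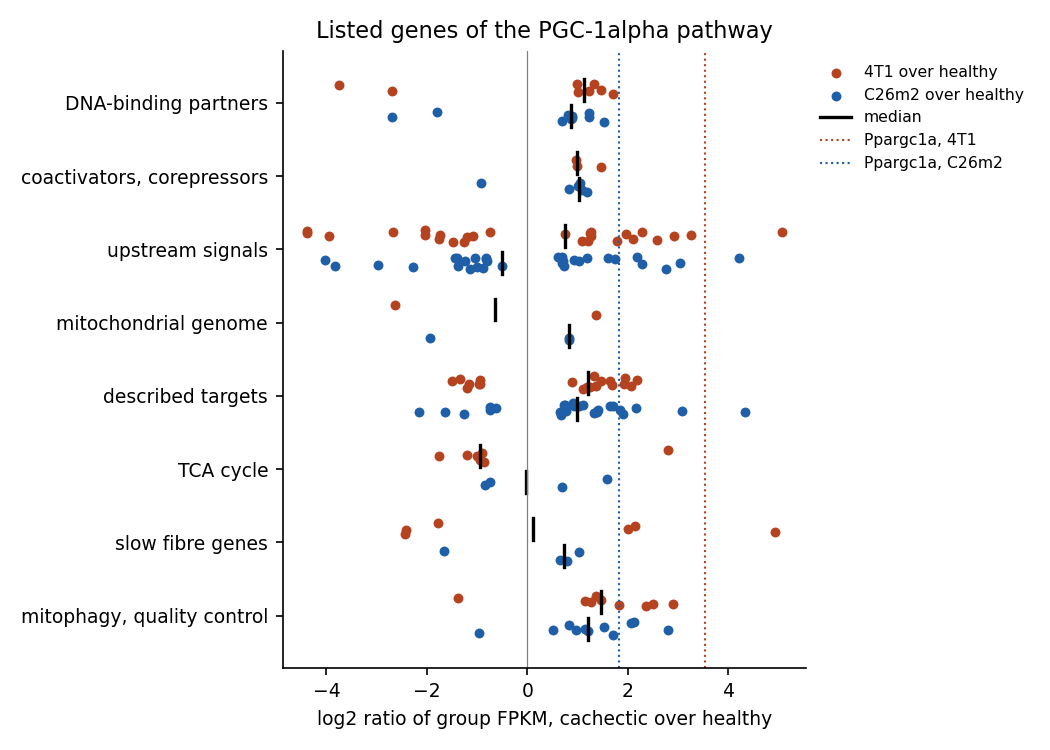
Log2 ratio of group FPKM, cachectic over healthy, for each listed gene of 8 lists around PGC-1alpha, with 1 point per gene and model, black bars at the median of the listed members and dotted lines at Ppargc1a. Listed DNA-binding partners, described targets and mitophagy genes lie mostly above 0 in both models, upstream signals lie on both sides, and listed TCA cycle genes in 4T1 lie mostly below 0.

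Lists were made of the family, the partners, the modifiers, the upstream signals and the described targets of PGC-1alpha, with the TCA cycle, slow fibre genes, mitochondrial quality control and a pair of atrophy ligases. Together they hold 225 genes, of which 86 (38.2%) were listed in 4T1, 52 higher and 34 lower, beside 32.8% of all genes tested. In C26m2, 98 (43.6%) were listed, 67 higher and 31 lower, beside 36.8% of all genes tested. The median log2 ratio of the listed members was 1.17 in 4T1 and 0.84 in C26m2, against 0.86 and 0.72 over all listed genes. The shares are of list members whether tested or not, and they lay near those of all genes.

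Among the transcription factors that bring PGC-1alpha to DNA, 8 of 21 (38.1%) were listed in 4T1, 6 higher and 2 lower. In C26m2, 10 (47.6%) were listed, 8 higher and 2 lower. These shares stand beside 32.8% and 36.8% of all genes tested. The median log2 ratio of the listed partners was 1.12 in 4T1 and 0.88 in C26m2. Nrf1, a nuclear respiratory factor that drives genes of the respiratory chain, had 13.2 FPKM in 4T1 cachectic muscle, against 5.29 FPKM in healthy Balb/c muscle, and 11.2 FPKM in C26m2 cachectic muscle, against 3.90 FPKM in healthy CD2F1 muscle. Yy1, a factor described as a partner of PGC-1alpha on mitochondrial genes, rose 2.36-fold in 4T1 and 2.34-fold in C26m2. Ppard, a nuclear receptor for fatty acids, rose 1.98-fold in 4T1 and 2.34-fold in C26m2, and its relative Ppara rose 3.28-fold in the 4T1 table and was not in the other. Mef2c and Rxrg were the partners that fell in both tables, while other members of their families rose. Mef2c, a muscle transcription factor that PGC-1alpha coactivates and that acts on the Ppargc1a promoter, fell 13.4-fold in 4T1 and 6.49-fold in C26m2, whereas Mef2a and Mef2d rose 1.82-fold and 1.61-fold in the C26m2 table. Rxrg, a retinoid X receptor gene, fell 6.45-fold in 4T1 and 3.49-fold in C26m2, whereas its relative Rxrb rose 2.01-fold and 1.85-fold. Of the oestrogen-related receptor genes, Esrrb rose 2.79-fold in 4T1 and 1.75-fold in C26m2. Its relatives Esrra and Esrrg and the respiratory factor gene Gabpa were listed in neither table.

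Of 17 genes for coactivators, corepressors and enzymes that modify PGC-1alpha, 3 (17.6%) were listed in 4T1, all higher. In C26m2, 6 (35.3%) were listed, 5 higher and 1 lower. These shares stand beside 32.8% and 36.8% of all genes tested. The median log2 ratios of the listed genes were 0.98 in 4T1 and 1.03 in C26m2. Sirt1, the deacetylase known to activate PGC-1alpha, had 11.7 FPKM in 4T1 cachectic muscle, against 4.22 FPKM in healthy Balb/c muscle, and 8.97 FPKM in C26m2 cachectic muscle, against 3.95 FPKM in healthy CD2F1 muscle. Crebbp, an acetyltransferase and coactivator, rose 1.98-fold in 4T1 and 2.14-fold in C26m2. Zfp746, described in neurons as a repressor of Ppargc1a, rose 1.97-fold in 4T1 and 1.78-fold in C26m2. Nrip1, a corepressor that opposes PGC-1alpha in metabolic genes, was listed in C26m2 with 3.25 FPKM, against 6.18 FPKM in healthy CD2F1 muscle.

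Genes of the signals that act on the Ppargc1a promoter or on its protein went both ways. Of 62, 27 (43.5%) were listed in 4T1, 14 higher and 13 lower, and 31 (50%) in C26m2, 15 higher and 16 lower. These shares stand beside 32.8% and 36.8% of all genes tested. The median log2 ratio of the listed signal genes was 0.75 in 4T1 and -0.51 in C26m2. No listed gene of any kind had an absolute log2 ratio under 0.716 in 4T1 or 0.476 in C26m2. With counts this even, the sign of the median therefore rests on the middle member and is not read as a contrast between the models. The 22 signal genes listed in both tables changed in the same direction in each, 12 higher and 10 lower.

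On the cAMP branch, which acts through the factor CREB, Sik1 showed the largest mean change of the signal list. Sik1, a kinase that CREB induces and that restrains the CREB coactivators, had 120.5 FPKM in 4T1 cachectic muscle, against 3.56 FPKM in healthy Balb/c muscle. It had 47.2 FPKM in C26m2 cachectic muscle, against 2.54 FPKM in healthy CD2F1 muscle. Crtc2, a CREB coactivator, rose 3.45-fold in 4T1 and 3.03-fold in C26m2, and the orphan receptor gene Nr4a3, a cAMP-responsive gene, rose 4.84-fold and 3.36-fold. Pde4d, a phosphodiesterase that breaks down cAMP, rose, with log2 ratios of 2.58 in 4T1 and 0.73 in C26m2. Prkaca, the catalytic subunit of protein kinase A, fell, with log2 ratios of -1.76 in 4T1 and -0.87 in C26m2. Crem, a CREB relative, was listed in C26m2 with 4.96 FPKM, against 8.74 FPKM in healthy CD2F1 muscle, and Creb1 was listed in neither table.

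On the calcium, p38 and energy-sensing branches, Camk1, Camk2a, Ppp3ca, Ppp3cb, Map2k6, Mapk14, Prkab2 and Prkag3 fell in both tables. Camk2a, a calcium and calmodulin kinase, had 6.20 FPKM in 4T1 cachectic muscle, against 128.9 FPKM in healthy Balb/c muscle, and 20.1 FPKM in C26m2 cachectic muscle, against 158 FPKM in healthy CD2F1 muscle. The calcineurin subunit genes Ppp3ca and Ppp3cb had log2 ratios of -1.08 and -1.20 in 4T1 and -0.79 and -0.81 in C26m2. Map2k6, a kinase that activates p38, fell 15.5-fold in 4T1 and 14.3-fold in C26m2, while Map2k3, another such kinase, rose 1.62-fold in the C26m2 table and was not in the other. Mapk14, p38alpha itself, fell 4.08-fold in 4T1 and 2.65-fold in C26m2. Prkag3, the AMPK gamma subunit of fast muscle, fell 21.1-fold in 4T1 and 16.4-fold in C26m2, and the AMPK subunit gene Prkab2 had log2 ratios of -2.04 and -1.14. Prkab1, another AMPK subunit gene, rose 2.32-fold in the 4T1 table and was not in the other.

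On the insulin and FoxO branch, Foxo1, Foxo3, Akt1, Gsk3b and Clk2 rose in both tables. Foxo1, a transcription factor described as acting on the Ppargc1a promoter, had 54.8 FPKM in 4T1 cachectic muscle, against 5.72 FPKM in healthy Balb/c muscle, and 39.4 FPKM in C26m2 cachectic muscle, against 4.81 FPKM in healthy CD2F1 muscle. Foxo3, whose atrophy programme PGC-1alpha is described as restraining in mice, rose 4.32-fold in 4T1 and 4.53-fold in C26m2. Akt1, a kinase that inhibits FoxO factors and PGC-1alpha, rose 7.55-fold in 4T1 and 6.81-fold in C26m2. The atrophy ligase genes Trim63 and Fbxo32, which FoxO factors induce, stood at 2180 and 901 FPKM in 4T1 cachectic muscle and at 2054 and 1006 FPKM in C26m2 cachectic muscle. Their log2 ratios were 4.57 and 4.23 in 4T1 and 4.73 and 3.97 in C26m2.

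Of 50 muscle genes described as targets of PGC-1alpha, 20 (40%) were listed in 4T1, 13 higher and 7 lower. In C26m2, 26 (52%) were listed, 20 higher and 6 lower. Of all genes tested, 32.8% were called in 4T1, 17.4% higher and 15.4% lower. The shares in C26m2 were 36.8% called, 21.7% higher and 15.1% lower. The median log2 ratio of the listed targets was 1.21 in 4T1 and 0.99 in C26m2, each below the value of Ppargc1a. Of the 16 targets listed in both tables, 11 rose and 5 fell in each. Those that rose in both included Acacb, Acadl, Acot2, Cd36, Lpin1 and Lpl, which act on fatty acids, and Bckdha and Bckdhb, which break down branched-chain amino acids.

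Acot2, a mitochondrial acyl-CoA thioesterase, had 19.7 FPKM in 4T1 cachectic muscle, against 6.26 FPKM in healthy Balb/c muscle, and 41.6 FPKM in C26m2 cachectic muscle, against 4.89 FPKM in healthy CD2F1 muscle. Acacb, the muscle acetyl-CoA carboxylase, rose 3.21-fold in 4T1 and 4.46-fold in C26m2. Lpin1, a phosphatidate phosphatase that also coactivates with PGC-1alpha, rose 4.55-fold in 4T1 and 3.14-fold in C26m2, and the lipase gene Lpl rose 3.81-fold and 3.28-fold. The fatty acid uptake gene Cd36 rose 2.15-fold in 4T1 and 3.77-fold in C26m2. Ucp2, an uncoupling protein gene, rose 4.21-fold in 4T1 and 2.63-fold in C26m2. Pdk4, which shuts pyruvate out of oxidation, was listed in C26m2 alone, at 1819.9 FPKM, against 89.7 FPKM in healthy CD2F1 muscle, and so was Ucp3, which rose 3.58-fold.

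Other described targets fell in both models. Fndc5, the precursor of the secreted peptide irisin, had 14.8 FPKM in 4T1 cachectic muscle, against 32.9 FPKM in healthy Balb/c muscle, and 20.9 FPKM in C26m2 cachectic muscle, against 34.7 FPKM in healthy CD2F1 muscle. Sod2, the mitochondrial superoxide dismutase, had 49.8 FPKM in 4T1 cachectic muscle, against 141 FPKM in healthy Balb/c muscle, and 92.2 FPKM in C26m2 cachectic muscle, against 142 FPKM in healthy CD2F1 muscle. The kynurenine aminotransferase genes split, Ccbl2 rising 3.84-fold in 4T1 and 2.50-fold in C26m2 while Ccbl1 had log2 ratios of -0.96 and -1.25. Vegfa, Cycs and Slc2a4, which encode an angiogenic factor, cytochrome c and the glucose transporter GLUT4, were listed in neither table.

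Of 13 genes that keep or copy the mitochondrial genome, 2 (15.4%) were listed in 4T1 and 3 (23.1%) in C26m2, beside 32.8% and 36.8% of all genes tested, and some of the 13 may not have been tested. Tfam, the main transcription factor of mitochondrial DNA and a known target of the pathway, was in neither table. Tfb2m, its partner at mitochondrial promoters, rose 1.78-fold in the C26m2 table and was not in the other. Mterfd3, a member of the mitochondrial termination factor family, was the one gene of this list in both tables, and it fell 6.24-fold in 4T1 and 3.85-fold in C26m2.

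Respiratory chain genes, taken as those whose names start Nduf, Cox, Uqcr or Atp5, were mostly not listed. Of 99 protein-coding genes with such names in GENCODE M21, 9 (9.09%) were listed in 4T1 and 8 in C26m2, beside 32.8% and 36.8% of all genes tested. Some of the 99 may not have been tested. Listed genes were found by prefix alone, so any that the authors named by an older symbol without it would be missed. In 4T1, 2 rose and 7 fell, with log2 ratios of -1.49 to 1.24 and a median of -1.10. In C26m2, 6 rose and 2 fell, with log2 ratios of -0.74 to 1.18 and a median of 0.60. At q of 0.01 or less 5 were left in 4T1, 1 higher and 4 lower, and 4 in C26m2, 3 higher and 1 lower.

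Complex I genes, which start Nduf, were lower in each listed case, 6 in 4T1 and 2 in C26m2. Ndufs1, its largest core subunit, had 82.8 FPKM in 4T1 cachectic muscle, against 232 FPKM in healthy Balb/c muscle, and 161 FPKM in C26m2 cachectic muscle, against 228 FPKM in healthy CD2F1 muscle. Ndufc2, an accessory subunit, had 67.5 FPKM in 4T1 cachectic muscle, against 179 FPKM in healthy Balb/c muscle, and 99.3 FPKM in C26m2 cachectic muscle, against 166 FPKM in healthy CD2F1 muscle. Both genes were lower in both models, and the q-value of Ndufs1 in C26m2 was 0.0455 in the authors' deposited table.

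Cox8a and Atp5g2 were the 2 respiratory chain genes that rose in both tables. Cox8a, a subunit of cytochrome c oxidase, had 121 FPKM in 4T1 cachectic muscle, against 51.2 FPKM in healthy Balb/c muscle, and 114.6 FPKM in C26m2 cachectic muscle, against 50.7 FPKM in healthy CD2F1 muscle. Atp5g2, a gene for the membrane ring of ATP synthase, rose 1.91-fold in 4T1 and 1.51-fold in C26m2 and was called at q of 0.01 or less in neither. Cox7a1, the muscle form of a cytochrome c oxidase subunit, fell to 553 FPKM in 4T1 cachectic muscle, against 1186 FPKM in healthy Balb/c muscle. No gene starting Uqcr, the prefix of complex III, was listed.

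**Figure D4:**
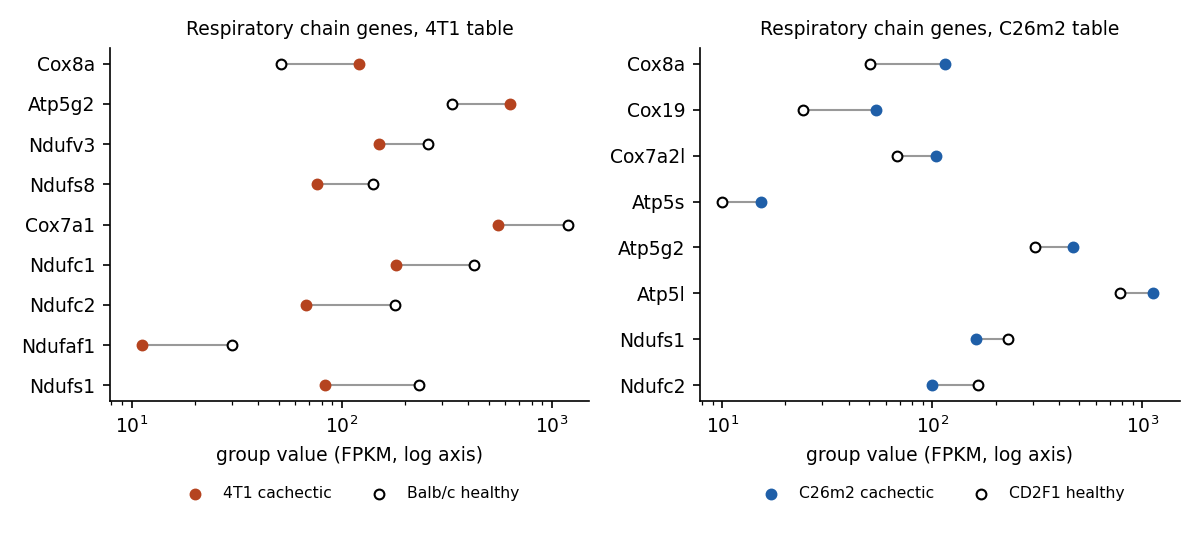
Group FPKM (log axis) of each listed gene with a respiratory chain prefix, 1 row per gene, filled points for the cachectic group and open points for the healthy group, with the 4T1 table on the left and the C26m2 table on the right. In 4T1, 7 of the 9 filled points lie left of their open points, and in C26m2 6 of the 8 lie right of them.

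Of 24 TCA cycle genes, 7 were listed in 4T1, 1 higher and 6 lower, with a median log2 ratio of -0.93, beside 32.8% of all genes tested that were called and 15.4% that were called lower. At q of 0.01 or less 2 of these 7 were left, Idh2 higher and Dlat lower. In C26m2, 4 were listed, 2 higher and 2 lower, beside 36.8% of all genes tested that were called. Idh2, the mitochondrial NADP-dependent isocitrate dehydrogenase, was the one that rose in both, with 372 FPKM in 4T1 cachectic muscle, against 53.0 FPKM in healthy Balb/c muscle, and 259.5 FPKM in C26m2 cachectic muscle, against 86.2 FPKM in healthy CD2F1 muscle. Idh3a, a subunit of the NAD-dependent enzyme, and Dlat, of pyruvate dehydrogenase, were lower in both, with log2 ratios of -1.20 and -1.75 in 4T1 and -0.73 and -0.85 in C26m2.

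Slow and oxidative fibre genes showed no common direction. Of 15, 6 (40%) were listed in 4T1, 3 higher and 3 lower, and 4 (26.7%) in C26m2, 3 higher and 1 lower. These shares stand beside 32.8% and 36.8% of all genes tested. Sln, which encodes the calcium pump inhibitor sarcolipin, rose 30.6-fold in the 4T1 table, to 24.2 FPKM from 0.791 FPKM. The slow troponin genes Tnni1 and Tnnt1 rose 4.40-fold and 4.00-fold there, at levels of only 1.99 and 3.70 FPKM in 4T1 cachectic muscle. Casq2 fell 5.33-fold in the same table, to 3.59 FPKM from 19.1 FPKM. Myl2, the slow regulatory light chain, fell in both, with log2 ratios of -2.44 in 4T1 and -1.66 in C26m2. Myl3, the slow essential light chain, had 3.66 FPKM in 4T1 cachectic muscle, against 12.5 FPKM in healthy Balb/c muscle, but 16.3 FPKM in C26m2 cachectic muscle, against 9.43 FPKM in healthy CD2F1 muscle. It was the one gene of the pathway lists called in opposite directions, and its C26m2 call was lost at q of 0.01 or less.

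Genes of mitophagy and mitochondrial quality control, which remove or repair mitochondria, were more often called higher than lower. Of 21, 9 were listed in 4T1, 8 higher and 1 lower, and 11 in C26m2, 10 higher and 1 lower, with median log2 ratios of 1.48 and 1.21. Of all genes tested, 17.4% were called higher in 4T1 and 21.7% in C26m2. The other members, 12 in 4T1 and 10 in C26m2, were not listed. Bnip3, a mitophagy receptor, had 1064 FPKM in 4T1 cachectic muscle, against 142 FPKM in healthy Balb/c muscle, and 861 FPKM in C26m2 cachectic muscle, against 123 FPKM in healthy CD2F1 muscle. Its relative Bnip3l rose 5.18-fold in 4T1 and 4.18-fold in C26m2, the cargo adaptor gene Sqstm1 5.66-fold and 4.36-fold, and the stress factor gene Atf4 3.54-fold and 3.26-fold. The mitochondrial protease genes Clpp and Clpx rose 2.22-fold and 2.79-fold in 4T1 and 2.31-fold and 2.89-fold in C26m2. Fundc1, another mitophagy receptor, was the member that fell, with log2 ratios of -1.38 in 4T1 and -0.97 in C26m2.

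Markers of other cell types moved in the same samples, and their part in the Ppargc1a values was not tested. All marker counts stand beside 32.8% of all genes tested that were called in 4T1 and 36.8% in C26m2. Sums of levels cover the listed markers alone. In bulk muscle, a change in the number of cells of a type and a change in RNA per cell cannot be told apart. Brown adipocytes, which express Ppargc1a strongly, had 3 of 10 markers listed in each table, 2 higher and 1 lower in 4T1 and 3 higher in C26m2. The one that fell was Cox7a1, with 553 FPKM in 4T1 cachectic muscle, against 1186 FPKM in healthy Balb/c muscle. Those that rose stood at low levels. Dio2 rose 4.35-fold in 4T1, to 3.48 FPKM from 0.801 FPKM, and 6.09-fold in C26m2, to 3.11 FPKM from 0.511 FPKM. Elovl3 rose 5.13-fold in C26m2, to 1.54 FPKM from 0.300 FPKM, a call lost at q of 0.01 or less. Cidea had 8.44 FPKM in 4T1 cachectic muscle, against 0.784 FPKM in healthy Balb/c muscle, and 1.53 FPKM in C26m2 cachectic muscle, against 0.308 FPKM in healthy CD2F1 muscle, while the defining marker Ucp1 was listed in neither table. White adipocyte markers were listed in C26m2 alone, 3 of 9, all lower, with a summed level of 3.36 FPKM, against 18.3 FPKM in healthy CD2F1 muscle.

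Of 17 hepatocyte markers, 2 were listed in 4T1, both higher, with a summed level of 20.6 FPKM, against 2.07 FPKM in healthy Balb/c muscle. Hp alone held 17.96 FPKM of this 4T1 cachectic sum, and the call of Serpina1b was lost at q of 0.01 or less. The remaining hepatocyte markers, among them Alb and Apoa1, were not listed in 4T1. In C26m2, 15 of the 17 were listed, all lower, with a summed level of 30.0 FPKM, against 240.3 FPKM in healthy CD2F1 muscle. The listed neutrophil markers rose, 4 of 11 in 4T1 and 3 in C26m2, with summed levels of 1999.7 FPKM in 4T1 cachectic muscle, against 1.82 FPKM in healthy Balb/c muscle, and 61.2 FPKM in C26m2 cachectic muscle, against 6.07 FPKM in healthy CD2F1 muscle. S100a8 and S100a9 held 1367 and 615 FPKM of the 4T1 cachectic sum. The 4T1 calls of S100a8 and Cxcr2 were lost at q of 0.01 or less. Of 10 macrophage markers, 2 rose and 4 fell in 4T1, and 1 rose and 8 fell in C26m2. The summed levels of the listed macrophage markers were 60.9 FPKM in 4T1 cachectic muscle, against 10.8 FPKM in healthy Balb/c muscle. In C26m2 cachectic muscle the sum was 21.4 FPKM, against 29.3 FPKM in healthy CD2F1 muscle. Cd68 alone held 51.8 FPKM of the 4T1 cachectic sum, whereas Mrc1, Emr1, C1qc and Ms4a7 fell in both tables. Fibroblast markers fell, 7 of 8 in 4T1 and 8 in C26m2, with summed levels of 79.9 FPKM in 4T1 cachectic muscle, against 544 FPKM in healthy Balb/c muscle, and 91.7 FPKM in C26m2 cachectic muscle, against 418 FPKM in healthy CD2F1 muscle.

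Of 7 endothelial markers, 3 were listed in 4T1, 2 higher and 1 lower, and 5 in C26m2, all higher. Of 12 muscle fibre markers, 2 were listed in 4T1, both lower, and 3 in C26m2, 1 higher and 2 lower. Mylpf had 3285 FPKM in 4T1 cachectic muscle, against 13985 FPKM in healthy Balb/c muscle, and Pvalb 1392 FPKM, against 10602 FPKM. In C26m2 cachectic muscle Mylpf had 4713 FPKM, against 11181 FPKM in healthy CD2F1 muscle, and Pvalb 2830 FPKM, against 11238 FPKM. Des rose 1.71-fold in C26m2, and the remaining fibre markers were not listed. Of 7 cardiac muscle markers, 3 were listed in 4T1, 2 higher and 1 lower, and 1 in C26m2, lower.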

How the data were processed

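Per the submitters' processing notes, TopHat2 2.1.0, Cufflinks 2.2.1 and Cuffdiff were used with mouse build NCBIM37. The sources used here do not give the annotation release, library normalization or use of strand, so reads of overlapping genes cannot be told apart. Per the labels' protocols, libraries were made from poly-A RNA with a TruSeq kit. The authors deposited 1 table of significant genes per model, and each holds a single FPKM value for either group. Their deposited log2 fold change, cachectic over healthy per the file headers, lay within 1.4e-05 of the log2 ratio of the FPKM values, which leaves no room for a pseudocount. Each p-value and q-value was deposited by the authors from Cuffdiff.

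Ratios, ranks, counts and distances were computed with Python 3.11.15, pandas 2.3.3 and numpy 2.4.6. The number of genes tested and the search for nearest genes were checked on simulated data. No test was run: per-library values were not used here. List symbols were matched by symbol, Ensembl identifier and RefSeq synonym. Members and lists were chosen with earlier results of these data known. Genes named were the listed family members, the 8 genes nearest to Ppargc1a, a fixed set of regulators, and per list the 4 genes of largest mean change listed in both tables, with some further members chosen after their values were seen. Alternatives were a q-value of 0.01, a minimum absolute log2 ratio of 1, a minimum of 1 FPKM, pseudocounts, rescaling, exact symbols and subunits alone.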

Additional observations from a re-analysis of the deposited data

How the results depend on the processing

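Ppargc1a was higher in both models under every setting tried. The same pseudocount in both groups cannot reverse a direction, so those settings show only how the size of the ratio moves. Rescaling used the median of listed genes, as genes that were not listed have no values here. The ratio of Ppargc1a in 4T1 was 10.3 with a pseudocount of 1 FPKM, 11.5 with 0.1 FPKM and 6.41 when divided by the median fold of listed genes. In C26m2 it was 3.25, 3.51 and 2.14. The difference between the models, 4T1 minus C26m2 on the log2 scale, was 1.67, 1.71 and 1.58 under the same settings. At q of 0.01 or less, respiratory chain genes numbered 5 in 4T1, 1 higher and 4 lower, and 4 in C26m2, 3 higher and 1 lower. Keeping absolute log2 ratios of 1 or more, 1 was higher in 4T1, and 2 were left in C26m2, 2 higher and 0 lower, since small changes are removed by construction. The same minimum left 59 pathway genes in C26m2, 41 higher and 18 lower. Of the genes nearest to Ppargc1a, 4 remained when likeness was taken from the 4 group levels. The other totals over the respiratory chain and pathway genes stayed within 1.5 times of those reported. Of the 20 counts of single pathway lists, 3 moved further at q of 0.01 or less: TCA cycle genes in 4T1 to 2, mitochondrial genome genes in 4T1 to 1 and slow fibre genes in C26m2 to 2. With absolute log2 ratios of 1 or more, 9 did, among them the partners in C26m2, to 5, the signals there, to 19, and the described targets there, to 16. Of 124 list and respiratory chain genes in 4T1, 98 were still called at q of 0.01 or less, and of 156 in C26m2, 128. Those lost included Nrf1, Cd36, Idh3a and Ccbl1 in 4T1, and Sod2, Dlat, Crem, Cidea and Myl3 in C26m2. No paired analysis was possible because the tables hold 1 value per group, and leaving out a replicate could not be run for the same reason. Depth is unknown, so no interval could be set on levels as low as those of Ppargc1b in cachectic muscle.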
